A study of Mus musculus with 191 samples.

Results

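The daily rhythm of liver transcripts was described in mice given anti-Ly6G, an antibody of clone 1A8 that binds a surface protein of mouse neutrophils and is used to deplete these cells. The 18 liver libraries labelled with this antibody were taken by their labels, out of 191 libraries of the series, with 3 at each Zeitgeber time (ZT, hours after lights on) of 1, 5, 9, 13, 17 and 21. Livers of mice given control IgG, with 3 libraries at the same 6 times, were measured in the same table. Both groups were wild-type C57BL/6 mice that received antibody at 3 µg per g of body weight on each of 2 days, with collection on the day after. The question was whether the rhythms of tissues change when neutrophils are removed. The labels mention both the normal facility and cabinets with light shifted by 12 h, without naming the mice of each, so cabinet and ZT cannot be told apart in any rhythm below. Libraries of a group are labelled as separate mice of that group, each sampled at 1 time, so no animal was followed over a day.

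The liver clock is a loop in which BMAL1 (gene Arntl) with CLOCK or NPAS2 switches on the genes of its own repressors, the PER and CRY proteins, and of the REV-ERB receptors (Nr1d1, Nr1d2), which in turn hold Arntl down. The same activators bind E-boxes, the receptors bind ROR elements, and the factors DBP, TEF and HLF carry the rhythm on to D-boxes. Liver metabolism also follows feeding, and mice eat mostly at night.

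Depth was 10.3 to 18.3 M recovered reads (M, 1e+06; median 14.2) in anti-Ly6G livers and 10.3 to 23.2 M (median 12.1) in IgG livers. Replicates of a time differed by more than sampling noise, and each library correlated with its replicates at a median r of 0.981 or more. The 10 hepatocyte markers, such as albumin and transthyretin, summed to 87630 to 132500 units of normalized signal in anti-Ly6G livers and 95960 to 126900 in IgG livers. Of 13 neutrophil markers, 6 were in the table, and these summed to 10.5 to 21.4 units in anti-Ly6G livers and 10.6 to 18.3 in IgG livers. Transcripts of Ly6g, the gene of the antibody's target, were at 0.0406 to 1.49 units in anti-Ly6G livers and 0.217 to 1.14 in IgG livers, too low in both to check the depletion.

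Many of the measured liver transcripts followed a daily wave in anti-Ly6G mice. Clock genes and the output factor Dbp had some of the largest waves, as did genes outside the clock lists such as Rgs16 and Elovl3. A transcript was called rhythmic where the cosine and sine terms of a 24 h wave, fitted by limma to log2(signal + 1), passed an F test at an adjusted p of 0.05. This held for 4333 of 12504 genes in anti-Ly6G livers (34.7%) and for 5368 in IgG livers (42.9%). Folds below are the fitted peak over the fitted trough of signal + 1, which understates the change of low genes. A fold of 2 or more was reached by 517 rhythmic genes in anti-Ly6G livers (4.13%) and 648 in IgG livers (5.18%). In anti-Ly6G livers the median fold of rhythmic genes was 1.42, 71 genes reached 4-fold, 17 reached 8-fold and 3 reached 32-fold, namely Dbp, Rgs16 and Nr1d1. The median SE of a peak time was 0.922 h.

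Peaks fell at all hours. Counted in 4 h windows from ZT 0, the 4333 rhythmic genes of anti-Ly6G livers split into 626, 880, 775, 660, 687 and 704. The 517 large rhythms split into 46, 79, 78, 64, 113 and 137 over the same windows, with the highest counts in the last 2 windows. Of 186 genes singled out by the rule in the methods, 173 were rhythmic in anti-Ly6G livers. Of these, 125 stayed so under every alternative scaling, filter or cosine fit and with each library or time left out. The fit with ZT as a factor was not part of this count. Where the 24 h peak of a gene of this set is described below and its call was lost, the highest adjusted p is given.

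**Figure D1:**
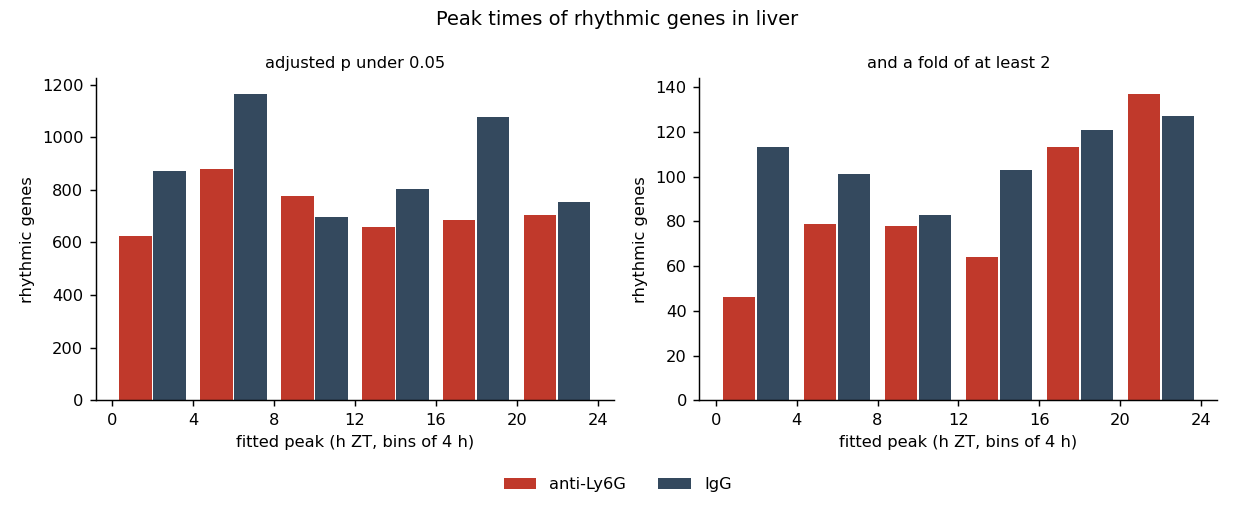
Number of rhythmic genes by fitted peak time in windows of 4 h, for anti-Ly6G and IgG livers, over all rhythmic genes and over those of 2-fold or more. In anti-Ly6G livers the window of ZT 4 to 8 held the most rhythmic genes, 880, and that of ZT 20 to 24 the most large ones, 137.

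The core clock ran with large amplitude in anti-Ly6G livers. All 5 activators and ROR receptors tested were rhythmic, with a circular mean peak at ZT 20.2, and 10 of 11 repressors and 4 of 4 genes of the bZIP output factors were too, against 34.7% of all genes. Arntl (chr7:113178471-113314126 on GRCm38) had 25.7, 26.6 and 22.3 units at ZT 1, then 6.4, 3.91 and 2.32 at ZT 5 and 2.54, 0.925 and 0.295 at ZT 9. It had 12.8, 13.7 and 14.02 units at ZT 13, 24.4, 17.9 and 25.7 at ZT 17, and 31.7, 29.0 and 32.6 at ZT 21. The libraries of ZT 5 and 9 were all below those of every other time. Its fitted peak was at ZT 20.2 (SE 0.40 h, 13.5-fold; limma adjusted p = 2.55e-08). Npas2, the partner that can replace CLOCK, peaked at ZT 21.7 with a 14.7-fold range. Clock peaked at ZT 20.7 with a range of only 1.96-fold, and its adjusted p was 0.0732 without ZT 9.

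The repressors came in a sequence through the day. Nr1d1 (chr11:98767932-98775377), whose product represses Arntl, had 12.9, 29.6 and 67.4 units at ZT 1, 93.9, 83.2 and 106.9 at ZT 5, and 19.6, 34.5 and 46.7 at ZT 9. It had 8.81, 2.94 and 4.05 units at ZT 13, 1.85, 1.71 and 2.54 at ZT 17, and 2.75, 2.83 and 2.61 at ZT 21. ZT 5 was above every other library, and the 3 libraries of ZT 1 spread widely. Its peak was at ZT 5.31 (SE 0.24 h, 36.4-fold; limma adjusted p = 6.088e-13), and that of its relative Nr1d2 at ZT 7.15 (11.6-fold). Per1 followed at ZT 9.61 (3.69-fold), Ciart, a repressor of CLOCK and BMAL1 activity, at ZT 9.85 (10.1-fold), and Per3 at ZT 10.3 (7.82-fold). Per2 (chr1:91415977-91459351) had 14.2, 12.3 and 15.0 units at ZT 1 and 86.0, 80.9 and 102.2 at ZT 13, and peaked at ZT 13.5 (SE 0.27 h, 6.13-fold). Cry1 (chr10:85131700-85185054) came last of the repressors, at ZT 17.4 (SE 0.28 h, 7.04-fold). It had 6.94, 6.76 and 5.08 units at ZT 5 and 43.8, 42.3 and 49.2 at ZT 17. Bhlhe41, Cry2 and Cipc were rhythmic at 2.48-, 1.47- and 1.33-fold, but leaving out ZT 5 gave Bhlhe41 an adjusted p of 0.302, and leaving out ZT 1 gave Cry2 0.399 and Cipc 0.284. Bhlhe40, the remaining repressor, had an adjusted p of 0.247.

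Among the outputs, Dbp (chr7:45705100-45710203) had the widest range of any rhythmic gene. It had 0.389, 0.494 and 2.99 units at ZT 1, 27.0, 52.8 and 64.7 at ZT 5, 58.1, 86.0 and 61.7 at ZT 9, and 4.06, 3.5 and 3.80 at ZT 13. At ZT 17 it had 0.774, 2.90 and 1.41 units and at ZT 21 0.531, 0.368 and 1.00. Every library of ZT 5 and 9 was above every library of the other times, and the fitted peak was at ZT 7.84 (SE 0.43 h, 51.0-fold; limma adjusted p = 1.074e-07). Tef peaked at ZT 10.1 (4.96-fold) and Hlf at ZT 11.3 (2.12-fold). Nfil3, which competes for the same D-boxes as a repressor, peaked nearly opposite to Dbp, at ZT 19.5 (2.83-fold). Of 8 genes that modify clock proteins, 3 were rhythmic. The deubiquitinase gene Usp2 peaked at ZT 11.3 with a 9.30-fold range, while the kinase genes Csnk1d and Csnk1e had adjusted p of 0.759 and 0.1596.

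**Figure D2:**
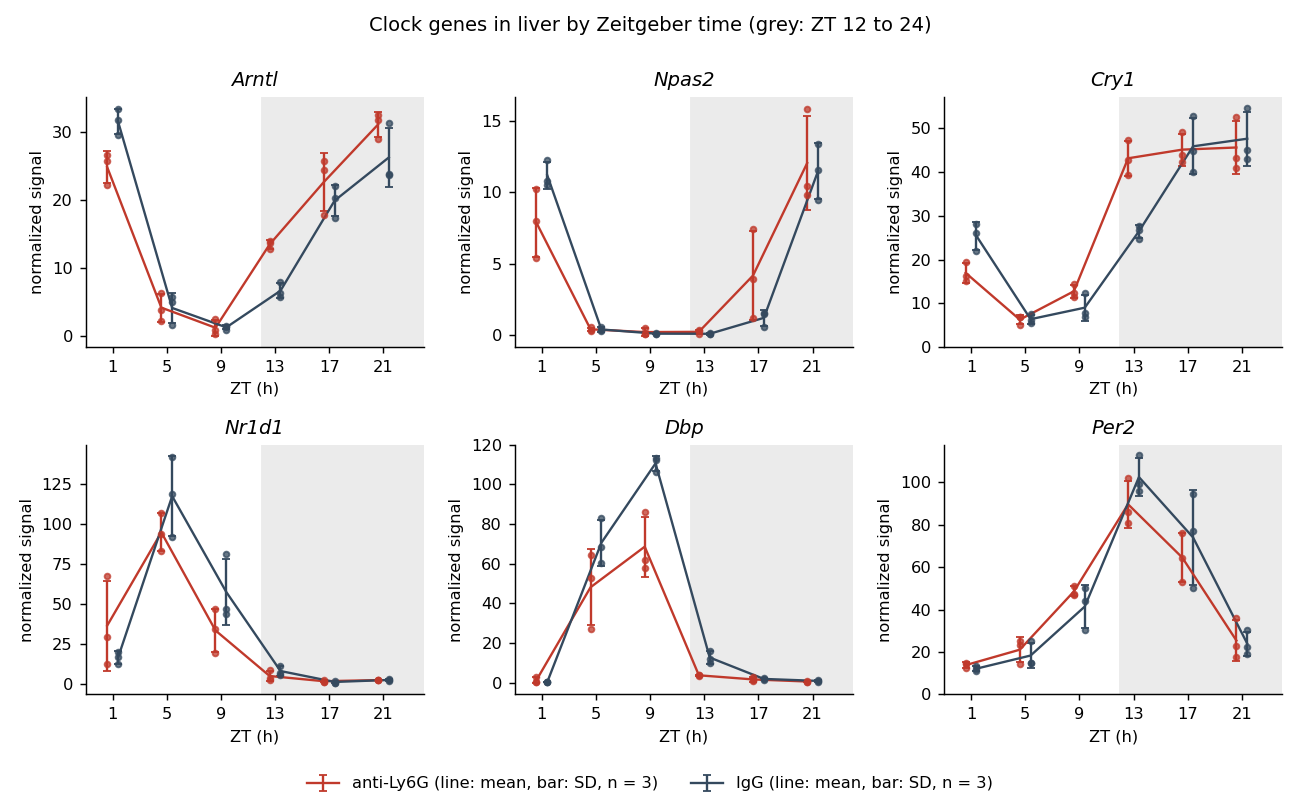
Normalized signal of 6 clock genes by ZT (h) in anti-Ly6G livers and IgG livers; points are single libraries, lines join the means of 3 libraries and bars are SD, with grey for ZT 12 to 24. Nr1d1 and Dbp were highest at ZT 5 to 9 and Arntl at ZT 17 to 1 in both treatments.

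The E-box, through which CLOCK and BMAL1 act, was looked up in the promoter windows of these genes. Promoter windows from RefSeq on GRCm38.p6, running from 250 bases before to 50 after the first listed start, were matched for 9512 of the 12504 genes. The letters CACGTG, which read the same on both strands, were in 10.2% of all windows, in 5 of 9 windows of clock repressors (55.6%) and in none of 4 windows of activators. Among rhythms of 2-fold or more that peaked at ZT 8 to 12 they were in 12 of 56 windows (21.4%), including those of Per1, Ciart and Tef. In the other 4 h bins of peak time they were in 8.9% to 13.5% of windows. The windows below are shown because their genes, 3 repressors and the output factor Tef, hold the motif, with each E-box in capitals. They lie at chr3:95882255-95882356 for Ciart, chr11:69098771-69098800 for Per1, chr15:81802534-81802563 for Tef and chr10:85185097-85185126 for Cry1, with Ciart and Cry1 on the minus strand, and Ciart holds 3 of them.
Ciart: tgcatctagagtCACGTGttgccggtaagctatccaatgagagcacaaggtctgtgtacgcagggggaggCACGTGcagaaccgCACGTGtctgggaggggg
Per1: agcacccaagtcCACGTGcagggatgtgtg
Tef: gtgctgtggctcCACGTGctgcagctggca
Cry1: ggtgccggtggtCACGTGgggtgcatgccg
These genes share the letters and still peaked between ZT 9.61 and 17.4.

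D-boxes were most frequent among large rhythms that peaked between ZT 8 and 16. The letters TTATGTAA, TTATGCAA or TTACGTAA, on either strand, were in 1.4% of all windows. Among rhythms of 2-fold or more in anti-Ly6G livers they were in 5 of 56 windows of genes that peaked at ZT 8 to 12 (8.9%) and 4 of 40 that peaked at ZT 12 to 16 (10.0%). They were in none of 37 windows of genes that peaked at ZT 0 to 4 and none of 95 that peaked at ZT 20 to 24. ROR elements, here TAGGTCA or TGGGTCA on either strand, were in 5.1% of all windows, in 9 of 95 windows of large rhythms that peaked at ZT 20 to 24 (9.5%), in 9 of 82 at ZT 16 to 20 and in 4 of 37 at ZT 0 to 4 (10.8%). Genes with a D-box and a large rhythm included Per1, Per3, Cyp2a5 and Cyp2b10. The Per3 window is shown because it holds 2 D-boxes, in capitals, at chr4:151044804-151044882 on the minus strand.
Per3: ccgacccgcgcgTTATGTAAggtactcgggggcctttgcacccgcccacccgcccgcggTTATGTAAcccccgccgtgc
Motif shares describe these windows only, and no test was made on them.

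Rhythmic members of some pathways clustered around an hour, and these hours differed between pathways. Other lists, such as those of fatty acid oxidation and bile acids, had no shared hour. Rhythmic autophagy genes centred loosely on ZT 6.84, with 7 of 12 within 3 h of it. The 6 of 15 gluconeogenesis genes that were rhythmic (40.0%) centred on ZT 9.60. Those of ribosome production and chaperones had mean peaks between ZT 12 and 18, and those of cholesterol synthesis centred on ZT 20.6. For each pathway the number of rhythmic members is to be read against 34.7% of all genes, and its median amplitude over all tested members against 0.144 on the log2 scale, which is the median over all 12504 genes.

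**Figure D3:**
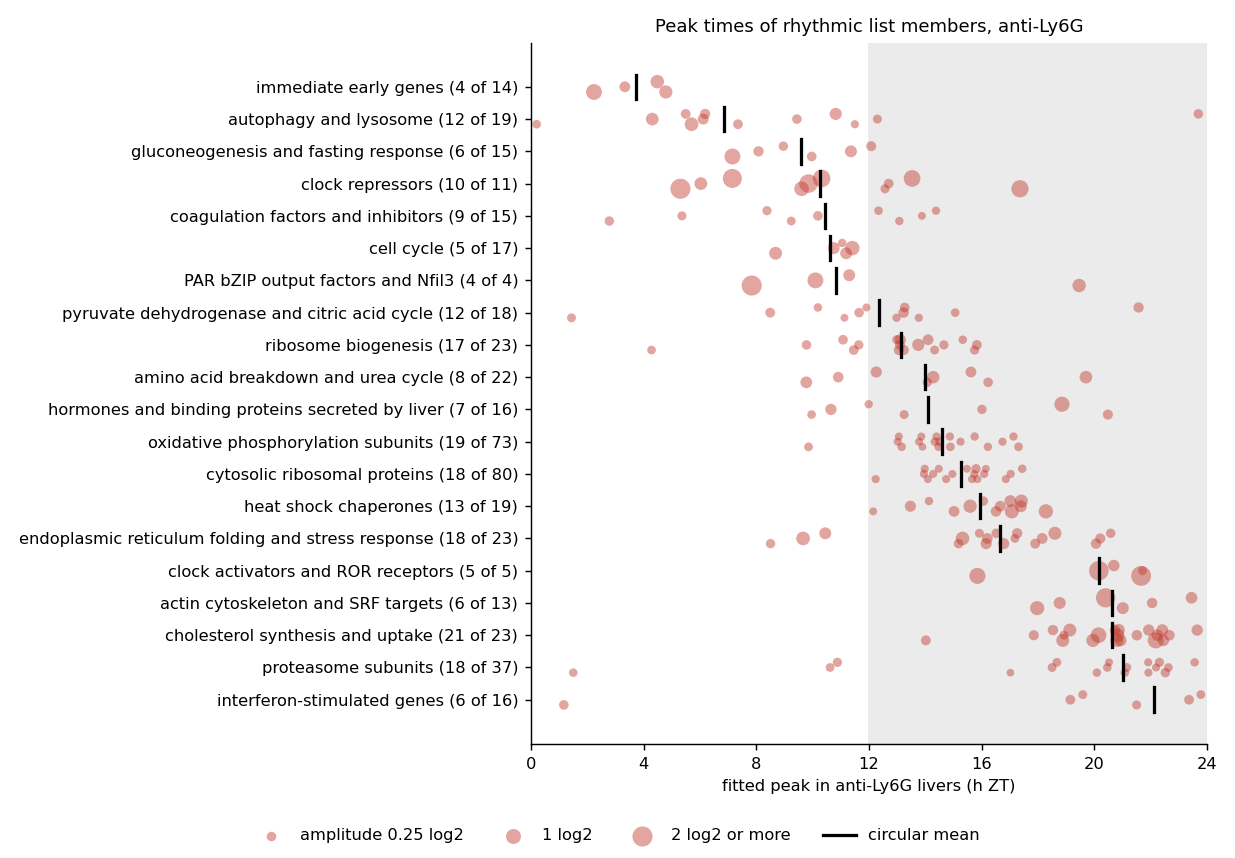
Fitted peak (h ZT) of each rhythmic member of the 20 gene lists in anti-Ly6G livers with at least 4 rhythmic members and peaks that clustered (mean vector length of 0.5 or more), 1 row a list, with point size for amplitude, the circular mean as a bar, grey for ZT 12 to 24 and the numbers of rhythmic and tested members in the row name. Rhythmic genes of cholesterol synthesis clustered around ZT 20.6 and those of gluconeogenesis (6 of 15) around ZT 9.60, while those of coagulation factors were spread from ZT 2.79 to 14.4.

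Autophagy, the breakdown of cell contents for reuse, was rhythmic in 12 of 19 genes, 10 of them with peaks between ZT 0 and 12, at a circular mean of ZT 6.84. Ulk1, the kinase that starts the process, averaged 99.2 ± 7.61 units at ZT 5 and 39.7 ± 5.23 at ZT 13 (SD, n = 3 each), without overlap, and peaked at ZT 5.70 (3.00-fold). Gabarapl1, a coat protein of the autophagosome, peaked at ZT 4.31 (2.46-fold) and the mitophagy receptor gene Bnip3 at ZT 10.8 (2.2-fold). Of 14 immediate early genes, which answer growth signals within minutes, 4 were rhythmic, with peaks between ZT 2.24 and 4.79. Junb averaged 21.2 ± 4.30 units at ZT 5 and 6.4 ± 0.993 at ZT 13 (SD, n = 3 each) and peaked at ZT 4.49 (2.89-fold).

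Fatty acid oxidation and ketone body genes were rhythmic in 13 of 22 but did not share an hour, with 7 peaks before ZT 12 and 6 after. Cpt1a, which lets fatty acids into mitochondria and limits their oxidation, averaged 420.9 ± 82.1 units at ZT 5 and 166.3 ± 20.9 at ZT 21 (SD, n = 3 each) and peaked at ZT 8.24 (SE 0.41 h, 2.64-fold). Angptl4, a secreted inhibitor of lipoprotein lipase, peaked at ZT 6.80 (3.23-fold). Pdk4, which shuts pyruvate out of the citrate cycle, peaked on the other side of the day, at ZT 20.3 (8.21-fold). Its 3 libraries had 1.40, 1.96 and 1.31 units at ZT 9 and 17.7, 20.4 and 28.2 at ZT 21, and ZT 9 was below all other libraries.

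Genes of bile acid synthesis and transport were rhythmic in 14 of 21, again without a shared hour. Abcg5 and Abcg8, which together form the exporter of sterols into bile, peaked at ZT 7.89 (2.76-fold) and ZT 6.18 (3.02-fold), and Hsd3b7, a bile acid synthesis enzyme gene, at ZT 0.121 (2.39-fold). Cyp7a1 (chr4:6265612-6275632), the rate-limiting enzyme of bile acid synthesis, had 31.9, 15.6 and 26.3 units at ZT 1 and 373.9, 294.6 and 159.1 at ZT 13. Every ZT 1 library was below all others, and the fitted peak was at ZT 13.7 (5.62-fold; limma adjusted p = 0.0004968, or 0.145 without ZT 1).

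Genes of gluconeogenesis, by which the liver makes glucose, and of the fasting response were rhythmic in 6 of 15. This share, 40.0%, was near the 34.7% of all genes, and all 6 peaked within 3 h of ZT 9.60. Pck1 (chr2:173153073-173159274), its rate-limiting enzyme, had 463.0, 1377 and 1490 units at ZT 1, 1631, 2142 and 2217 at ZT 5, and 1194, 2788 and 1979 at ZT 9. It had 1352, 1518 and 501.3 units at ZT 13, 538.5, 544.2 and 492.6 at ZT 17, and 481.5, 817.8 and 203.7 at ZT 21. ZT 5 and 9 lay above all libraries of ZT 17 and 21, and ZT 1 and 13 each had 1 low library. The peak was at ZT 7.15 (SE 0.72 h, 5.02-fold; limma adjusted p = 0.0003818). Slc37a4, the transporter that brings glucose 6-phosphate to its phosphatase, peaked at ZT 11.4 (2.12-fold) and Fbp1 at ZT 12.1 (1.53-fold). G6pc, the phosphatase that releases glucose, had an adjusted p of 0.382 and was not called. In IgG livers 9 of the 15 genes were rhythmic, at a mean of ZT 6.96. Their peaks had a mean vector length of 0.329, against 0.9 for the 6 genes rhythmic in anti-Ly6G livers. These lengths cover different genes, so they do not compare the same genes between treatments. The 5 genes rhythmic in both had a median peak difference (anti-Ly6G minus IgG) of -0.68 h.

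Glycolysis and glycogen genes were rhythmic in 15 of 17, and all but 1 of these peaked between ZT 7.74 and 20.1. Pfkfb3, which makes the activator of phosphofructokinase, averaged 41.8 ± 11.5 units at ZT 9 and 5.75 ± 1.64 at ZT 21 (SD, n = 3 each) and peaked at ZT 7.81 (7.79-fold). Gys2, the liver glycogen synthase, peaked at ZT 10.4 (SE 0.31 h, 2.91-fold). Ppp1r3c, which brings a phosphatase to glycogen, peaked at ZT 20.1 (6.08-fold). Of 17 cell cycle genes 5 were rhythmic and all peaked between ZT 8.69 and 11.4, among them the checkpoint kinase gene Wee1 (3.57-fold), which had 1.62, 1.303 and 2.03 units at ZT 1 and 10.9, 13.3 and 10.2 at ZT 9.

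Drug metabolism was rhythmic in 12 of 20 genes, led by Cyp2b10, a target of the receptor CAR, at ZT 17.3 (9.40-fold). Por, which passes electrons to all microsomal cytochromes P450, averaged 401.8 ± 104.8 units at ZT 13 and 84.0 ± 2.37 at ZT 1 (SD, n = 3 each) and peaked at ZT 11.1 (SE 0.42 h, 4.198-fold). Cyp2a5 peaked close to it, at ZT 11.9 (4.70-fold), and Alas1, the first and limiting enzyme of heme synthesis, at ZT 9.76 (4.85-fold). At ZT 1 the 3 libraries of Alas1 had 450.0, 110.0 and 71.5 units, a wide spread carried by 1 library. Of 16 NAD genes 10 were rhythmic. Nampt, the limiting enzyme of NAD salvage, averaged 164.4 ± 15.0 units at ZT 13 and 46.0 ± 5.56 at ZT 1 (SD, n = 3 each) and peaked at ZT 12.5 (SE 0.32 h, 3.29-fold), with Nmrk1 at ZT 12.2 (2.16-fold).

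Amino acid breakdown and urea cycle genes were rhythmic in 8 of 22. Asl, an enzyme of the urea cycle, peaked at ZT 14.3 (SE 0.40 h, 2.38-fold) and Gldc, of glycine breakdown, at ZT 19.7 (2.43-fold). Of 16 genes of methionine and polyamine metabolism 12 were rhythmic. Srm and Odc1, which make spermidine and its precursor putrescine, peaked at ZT 13.2 (2.55-fold) and ZT 15.3 (2.36-fold). Bhmt, which supplies methyl groups for methionine, peaked later, at ZT 19.8 (3.49-fold). Tfrc, the transferrin receptor that takes up iron, had 22.4, 16.9 and 25.8 units at ZT 1, 17.8, 17.0 and 18.3 at ZT 5 and 46.8, 70.1 and 70.4 at ZT 13, and peaked at ZT 14.8 (3.22-fold).

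Most rhythmic genes of ribosome production had their peaks near the start of the night or soon after. Of 23 ribosome biogenesis genes 17 were rhythmic, 15 of them within 3 h of ZT 13.1, with Rrp12, a factor for ribosome export and maturation, at ZT 13.8 (2.23-fold). The ribosomal protein genes moved less, with 18 of 80 rhythmic, none of 2-fold and a median amplitude of 0.088, yet 17 of the 18 peaked within 3 h of ZT 15.3. After quantile normalization the count was 6, leaving out ZT 13, 17 or 5 made it 6, 10 or 7, and 10 to 26 with 1 anti-Ly6G library left out. Genes of oxidative phosphorylation had a like pattern, with 19 of 73 rhythmic at a mean of ZT 14.6 and a largest fold of 1.29 (Cox7a2l), and 9 and 11 without ZT 13 and ZT 17. Both shares were below the 34.7% of all genes. The proteasome, which degrades proteins, was rhythmic in 18 of 37 genes at a mean of ZT 21.0, with folds from 1.12 to 1.40.

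Heat shock genes, whose products refold proteins and which answer body temperature, all had their highest mean at ZT 13 or 17. Of 19 tested 13 had a 24 h rhythm, all with peaks between ZT 12 and 24 and 12 of them within 3 h of ZT 15.9, and the list's median amplitude was 0.442. Hsp90aa1 averaged 476.0 ± 42.6 units at ZT 13 and 130.7 ± 8.85 at ZT 5 (SD, n = 3 each) and peaked at ZT 17.1 (3.31-fold). Hspb1, with its highest mean at ZT 17, peaked at ZT 18.3 (3.40-fold) and Hspa4l at ZT 17.4 (2.64-fold). In a fit with added terms of a 12 h period, which also takes up shapes narrower than a cosine, 71 of 12504 genes passed in anti-Ly6G livers (0.568%) and 187 in IgG livers (1.5%). Of these 71 genes, 49 also had a 24 h rhythm and 32 passed in IgG livers too. The heat shock list held 8 of the 71, namely Hspa1b, Hspa8, Hsph1, Dnajb1, Dnaja1, Bag3, Hspa4l and Chordc1. In all 8 the 12 h wave peaked between ZT 1.04 and 1.37, and so again between ZT 13 and 14.

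Hspa1b (chr17:34956429-34959238), a stress-induced HSP70 gene with the near-identical neighbour Hspa1a among which reads can be split, was highest at ZT 13. It had 103.3, 18.2 and 13.9 units at ZT 1, 16.7, 17.9 and 14.5 at ZT 5, and 14.3, 14.3 and 28.5 at ZT 9. It had 86.8, 92.6 and 156.3 units at ZT 13, 7.79, 24.4 and 8.76 at ZT 17, and 6.26, 5.85 and 11.4 at ZT 21. All 3 libraries of ZT 13 were high, and outside that time only the first library of ZT 1 came near them. Hspa8, the constitutive HSP70, had 1967, 2268 and 2112 units at ZT 13 and 606.3 to 1417 at other times, without overlap. Dnajb1, a cochaperone, had 31.5, 36.8 and 42.1 units at ZT 13, and again the first ZT 1 library (35.6) was the only other above 23. The number of heat shock genes with the 12 h component was 4 without that library, 12 without the third library of ZT 1, 5 in a fit of anti-Ly6G livers alone, 3 without ZT 1 and 0 without ZT 13. In IgG livers the same 8 genes but Hspa4l passed.

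**Figure D4:**
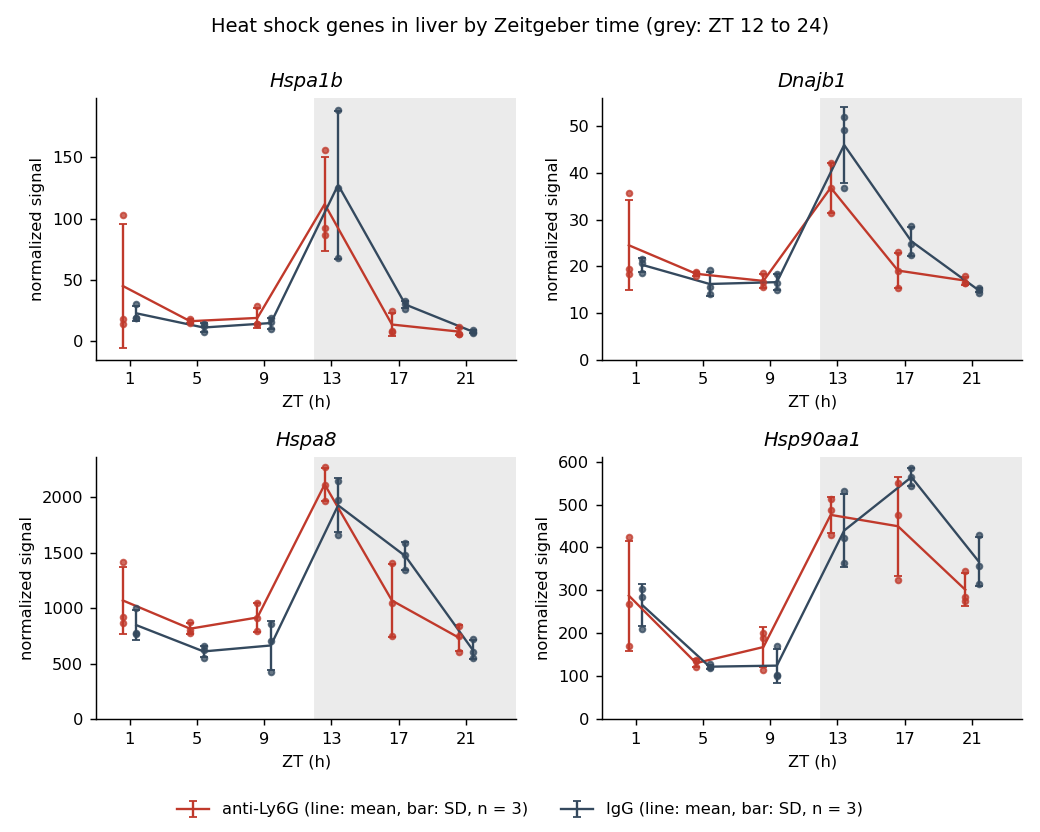
Normalized signal of heat shock genes by ZT (h) in anti-Ly6G livers and IgG livers; points are single libraries, lines join the means of 3 libraries and bars are SD, with grey for ZT 12 to 24. Hspa1b, Hspa8 and Dnajb1 were high at ZT 13, and 1 anti-Ly6G library of ZT 1 had 103.3 units of Hspa1b.

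The heat shock element, here GAANNTTC, which reads the same on both strands, was searched after these values had been seen. It was in 5.7% of all promoter windows and in 9 of 14 windows of the heat shock list (64.3%). Of windows of genes with the 12 h component it was in 7 of 56 (12.5%). Those 7 include the list members Hspa1b, Hsph1, Dnaja1, Bag3 and Chordc1, so this share largely repeats that of the list. The windows of 3 list members are shown with the element in capitals, at chr17:34959323-34959354 on the minus strand for Hspa1b, chr5:135887790-135887841 for Hspb1 and chr4:40722332-40722363 for Dnaja1.
Hspa1b: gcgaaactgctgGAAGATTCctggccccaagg
Hspb1: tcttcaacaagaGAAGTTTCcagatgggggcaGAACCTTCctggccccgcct
Dnaja1: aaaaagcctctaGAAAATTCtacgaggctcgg
Of 23 genes of protein folding in the endoplasmic reticulum 18 were rhythmic, at a mean of ZT 16.6, and 10 without ZT 5. Herpud1, a gene of the unfolded protein response, peaked at ZT 9.66 (3.02-fold), ahead of the chaperone genes, and Sdf2l1 at ZT 18.6 (2.61-fold). Hspa5, which encodes the main chaperone BiP, peaked at ZT 16.2 (1.83-fold), with an adjusted p of 0.194 without ZT 5.

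Fatty acid and triglyceride synthesis was rhythmic in 18 of 22 genes, with peaks spread from ZT 6.73 to 23.0, 5 of them before ZT 12 and 13 after (11 of 22 rhythmic without ZT 5). Elovl3 (chr19:46131897-46135694), an elongase of very long chains, had 564.8, 732.4 and 427.2 units at ZT 1, 151.2, 142.0 and 102.3 at ZT 5, and 31.6, 28.5 and 30.9 at ZT 9. It had 83.4, 74.1 and 140.1 units at ZT 13, 304.6, 492.7 and 452.5 at ZT 17, and 440.7, 666.7 and 617.3 at ZT 21. The ZT 9 libraries were the lowest and those of ZT 17, 21 and 1 all stood above ZT 5 and 13. The peak was at ZT 21.5 (SE 0.27 h, 18.6-fold; limma adjusted p = 5.866e-12). Thrsp, which promotes lipogenesis, peaked at ZT 14.9 (5.50-fold) and Lpin1, which makes diacylglycerol and also acts with PPAR alpha, at ZT 7.67 (5.81-fold). Fasn, the fatty acid synthase, peaked at ZT 18.0 (2.24-fold), with an adjusted p of 0.622 without ZT 5.

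Cholesterol synthesis was the most uniform of the lipid pathways. Of 23 genes of synthesis, its regulation and LDL uptake, 21 were rhythmic, all with peaks between ZT 14.02 and 23.7 and 19 of them within 3 h of ZT 20.6, and 10 reached 2-fold. The list's median amplitude was 0.475 in anti-Ly6G livers, and its rhythmic members numbered 19 to 22 under every alternative cosine fit. Hmgcs1 (chr13:119690351-119708260), which makes the precursor HMG-CoA, had 464.7, 393.5 and 639.7 units at ZT 1, 214.7, 248.9 and 203.0 at ZT 5, and 98.0, 122.4 and 117.4 at ZT 9. It had 67.9, 185.4 and 196.9 units at ZT 13, 284.5, 409.4 and 319.1 at ZT 17, and 510.1, 445.3 and 599.3 at ZT 21. ZT 9 and 13 lay below every library of ZT 5, 17, 21 and 1, and the peak was at ZT 22.2 (SE 0.46 h, 5.22-fold; limma adjusted p = 3.904e-07). Mvd, Pmvk and Fdps, enzymes between mevalonate and farnesyl diphosphate, peaked at ZT 20.1 (4.68-fold), ZT 20.8 (3.02-fold) and ZT 20.8 (2.74-fold). Sqle and Lss, which lead from squalene to the first sterol, peaked at ZT 18.9 (2.60-fold) and ZT 19.9 (2.74-fold).

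The Hmgcs1 promoter is shown because this gene had the largest fold of the list. CCAAT on either strand was in 39.0% of all windows and in 15 of 16 windows of the list (93.8%). It was also in 8 of 9 windows of clock repressors (88.9%). Among rhythms of 2-fold or more it was in 32.4% (peaks at ZT 0 to 4) to 51.8% (ZT 8 to 12) of windows. The sterol element TCACNCCAC was in 1.1% of all windows and in 1 of the 16 of the list. Both motifs were searched after the values had been seen. The stretch lies at chr13:119690102-119690322 with both motifs in capitals, CCAAT on the opposite strand reading ATTGG.
Hmgcs1: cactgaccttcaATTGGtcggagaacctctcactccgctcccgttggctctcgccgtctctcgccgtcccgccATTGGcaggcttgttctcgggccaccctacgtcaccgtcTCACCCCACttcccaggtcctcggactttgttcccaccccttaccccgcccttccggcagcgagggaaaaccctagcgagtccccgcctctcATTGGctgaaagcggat
It holds 3 CCAAT boxes and 1 sterol element.

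Rhythmic cytoskeletal genes and targets of the factor SRF peaked late. Of 13 genes 6 were rhythmic, all with peaks between ZT 18.0 and 23.4. The tubulin gene Tubb2a averaged 239.9 ± 64.1 units at ZT 21 and 16.1 ± 2.29 at ZT 9 (SD, n = 3 each), and peaked at ZT 20.4 (SE 0.38 h, 12.4-fold). Actb, often used as a reference gene, had 243.5 to 273.4 units at ZT 9 and 462.2 to 675.8 at ZT 17, and peaked at ZT 18.8 (2.13-fold). Cdkn1a, the p21 cell cycle inhibitor and a member of the glucocorticoid list, peaked at ZT 18.6 (SE 0.44 h, 11.5-fold) with 0.584, 1.95 and 0.885 units at ZT 9. Of that list's 14 genes 9 were rhythmic, at hours from ZT 4.21 to 18.6. Clpx, an unfoldase of mitochondria, peaked at ZT 21.1 (SE 0.25 h, 4.70-fold).

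Rhythms of liver secretory and immune genes were mostly below 2-fold, like most rhythms of these livers. Of all 12504 genes 4.13% had a rhythm of 2-fold or more. Of 21 acute phase genes 5 were rhythmic, of 18 complement genes 3 and of 15 coagulation genes 9, none of them with a 2-fold range. The median amplitudes of these lists were 0.225, 0.095 and 0.128 on the log2 scale, against 0.144 of all genes. The 4 cold-responsive RNA-binding genes, among them Cirbp, were all uncalled in anti-Ly6G livers, with an adjusted p of 0.18 for Cirbp, and all 4 were rhythmic in IgG livers. The rhythm difference itself had an unadjusted limma p under 0.05 in 0 of these 4 genes, with an adjusted p of 0.70 for Cirbp. Citrate cycle genes were rhythmic in 12 of 18, with folds of 1.14 to 1.63, led by Idh3a at ZT 13.2, and Cs, the citrate synthase, peaked apart from it at ZT 21.6 (1.603-fold). Of 18 lipoprotein genes 6 were rhythmic and of 16 genes of secreted liver hormones 7. Among these hormones, Angptl8, which directs fat to storage after meals, peaked at ZT 18.8 (4.16-fold), with 93.9, 102.6 and 113.9 units at ZT 21 and 20.7, 15.2 and 20.3 at ZT 5. At ZT 21 all its libraries were above those of every other time. Of 16 interferon-stimulated genes 6 were rhythmic, with Stat2 at ZT 19.1 (1.48-fold). Of the cell type markers, 2 of 10 of hepatocytes were rhythmic in anti-Ly6G livers, 0 of 12 of Kupffer cells, 0 of 10 of sinusoidal endothelium, 2 of 10 of stellate cells and 0 of 3 of neutrophils. Of 5 cholangiocyte markers 2 were rhythmic, namely Sox9 at ZT 19.1 (2.82-fold) and Krt19 at ZT 18.5 (2.13-fold). In such bulk libraries a marker's level does not tell fewer cells of a type from less RNA per cell. The 12 Kupffer cell markers summed to 242.3 to 531.2 units in anti-Ly6G livers and 159.0 to 408.6 in IgG livers, and their part in the rhythms was not tested.

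Against IgG livers, a difference in rhythm passed for 1 of 12504 genes (0.008%), and 1149 had an unadjusted p under 0.05 (9.19%). The gene was Uchl5 (chr1:143777234-143807466), a deubiquitinase of the proteasome. Peaks of the 3211 genes rhythmic in both treatments were earlier in anti-Ly6G livers for 2268, with a median difference (anti-Ly6G minus IgG) of -0.705 h. The cabinets of the mice cannot be told apart from this difference. Of 20 core clock genes 19 were rhythmic in both, and 18 of these peaked earlier in anti-Ly6G livers, Cry1 by 1.43 h (SE 0.39 h; limma adjusted p of the rhythm difference 0.421). At ZT 13 Cry1 had 39.4, 47.3 and 42.7 units in anti-Ly6G livers against 27.8, 26.9 and 24.7 in IgG livers, and Arntl 12.8, 13.7 and 14.02 against 7.91, 5.78 and 6.38. Neither gene overlapped between the treatments at that time or at ZT 1, where both were lower in anti-Ly6G livers. The limma adjusted p of the rhythm difference of Arntl was 0.769. Genes compared for overlap between treatments, here and below, were picked, and the share of all genes without overlap was not counted.

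The cholesterol list differed most often at the unadjusted level, with none past the adjusted threshold. Of its 23 genes 19 had an unadjusted p under 0.05 for the rhythm difference, against 9.19% of all genes, and 22 had the larger amplitude in anti-Ly6G livers, against 40.3% of all genes. The count was 11 when ZT 5 or ZT 21 was left out, 14 when ZT 17 was, and 16 to 19 with 1 library left out. The median gene of the list stood at 0.27, -0.21, -0.38, -0.24, 0.21 and 0.49 log2 units from its own mean over ZT 1 to 21 in anti-Ly6G livers, and at 0.22, 0.07, -0.14, -0.17, -0.01 and 0.07 in IgG livers. In IgG livers 11 of the 23 were rhythmic, 2 of them at 2-fold. At ZT 17 Hmgcs1 had 284.5, 409.4 and 319.1 units in anti-Ly6G livers against 178.2, 236.7 and 198.2 in IgG livers. At ZT 5 it had 214.7, 248.9 and 203.0 units in anti-Ly6G livers against 450.6, 285.7 and 382.1 in IgG livers. The order of the treatments in Hmgcs1 was thus reversed between these times, without overlap at either. Hmgcs1 was a picked gene, and the limma adjusted p of its rhythm difference was 0.352. For Mvd the treatments overlapped at all 6 times, and for Fdps at 5 of 6, all but ZT 5.

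**Figure D5:**
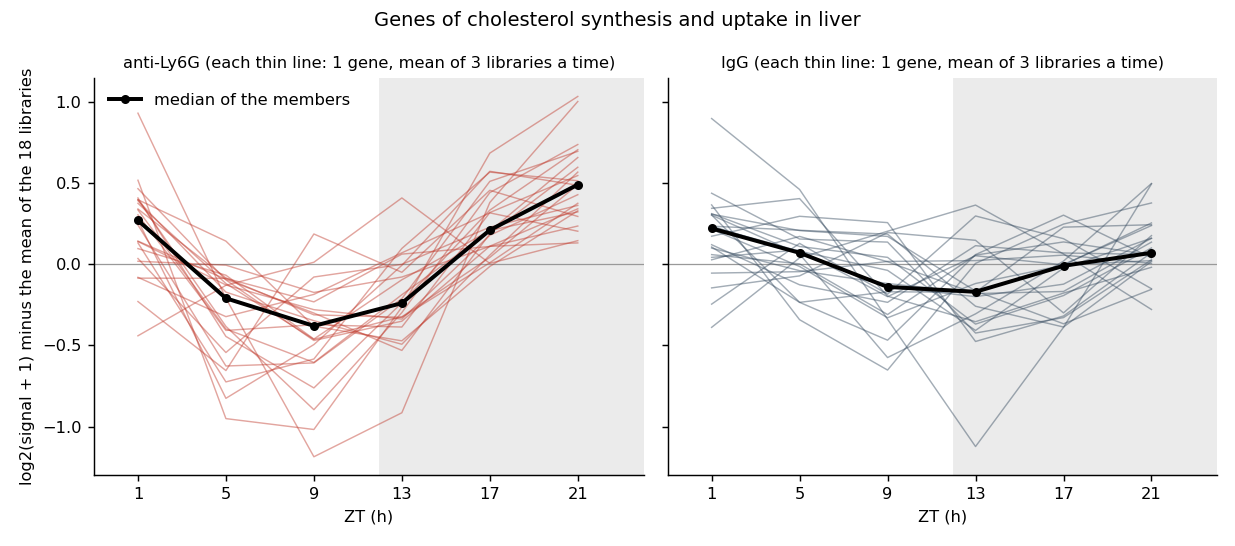
Genes of cholesterol synthesis and uptake by ZT (h), as log2(signal + 1) minus the gene's mean over the 18 libraries of its treatment, for anti-Ly6G livers and IgG livers; thin lines are single genes, the thick line their median and grey ZT 12 to 24. The median swings between -0.38 and 0.49 in anti-Ly6G livers and between -0.17 and 0.22 in IgG livers.

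Other lists differed less often than the cholesterol list and in both directions. The larger amplitude was in anti-Ly6G livers for 11 of 13 cytoskeletal and SRF genes, 15 of 22 fatty acid oxidation genes, 2 of 19 heat shock genes and 1 of 20 core clock genes, against 40.3% of all genes. The rhythm difference had an unadjusted p under 0.05 for 2, 3, 1 and 3 genes of these lists, in the same order, and for 6 of 15 gluconeogenesis genes (40.0%), against 9.19% of all genes, and none passed after adjustment. Of the heat shock genes, 6 reached 2-fold in anti-Ly6G livers and 12 in IgG livers. Egr1, an immediate early factor (chr18:34861207-34864956), had 15.4, 14.3 and 20.6 units at ZT 1 in anti-Ly6G livers against 112.3, 122.3 and 86.6 in IgG livers, and overlapped at the other 5 times. Its fold was 4.93 in anti-Ly6G livers (adjusted p of the rhythm 0.01531, or 0.0944 without ZT 1) and 24.1 in IgG livers. Of 12 Kupffer cell markers, 8 had an unadjusted p under 0.05 for the rhythm difference, 0 being rhythmic in anti-Ly6G livers and 5 in IgG livers. That count of 8 was 2 to 10 with 1 library left out, 2, 3 and 1 without ZT 5, 9 and 21, and none of the 12 passed after adjustment.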

How the data were processed

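Livers of mice given anti-Ly6G or IgG were sequenced, per the labels' protocols, with NEBNext Ultra libraries (200 ng RNA each, HiSeq2500, single reads of 50 nt). The submitters' processing notes name mm10, CASAVA 1.8, cutadapt 1.7.1, RSEM 1.7.1 and limma 3.46, while normalization and gene filter are not given in the sources used here. The deposited values are a normalized signal per gene on a linear scale. In form they equal RSEM's estimated counts plus a constant over a scaled library size, and 44.5% of the recovered counts were whole within 0.001, so no count test was made. Symbols came from GENCODE, with 44 of 14451 identifiers unmatched, and GRCm38 coordinates of genes came from RefSeq.

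Genes with a mean of at least 1 over the 36 liver libraries (12504) were fitted as log2(value + 1) with limma 3.58.1 in R 4.3.3, with a mean-variance trend. The model held an intercept, cosine and sine of a 24 h period for each treatment, with 12 h terms added for the 12 h component. F tests were two-sided and Benjamini-Hochberg adjusted over all 12504 genes at 0.05. The code was tested on simulated data.

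Members and gene lists were chosen with earlier results of these data known. Named genes were the clock lists, the 4 rhythmic members of largest amplitude of each pathway list, 10 rate-limiting or defining genes, outside the lists the 12 rhythmic genes of smallest p and 12 of largest amplitude, genes with a rhythm difference, and the 8 smallest p of the 12 h component. Other list members are given as examples chosen after their values were seen. Replicates are separate samples by their labels. Alternatives covered pseudocount, filter, scaling, weights, a factor of ZT, anti-Ly6G libraries alone, and leaving out each library or time. Motifs and promoters came from RefSeq windows. Some genes of the lists are not reported here by name.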

Additional observations from a re-analysis of the deposited data

Results flagged for a closer look

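Uchl5, a deubiquitinase gene of the proteasome, was flagged because its rhythm differed between the treatments by the test of the difference itself. It had 12.2, 13.7 and 13.0 units at ZT 1, 12.9, 16.6 and 14.2 at ZT 5, and 16.0, 19.6 and 19.5 at ZT 9 in anti-Ly6G livers. It had 20.3, 19.2 and 17.4 units at ZT 13, 14.8, 15.4 and 14.6 at ZT 17, and 11.6, 14.5 and 13.1 at ZT 21 in these livers, which gave a peak at ZT 11.3 and a 1.48-fold range. In IgG livers it lay between 12.8 and 16.5 units over all 18 libraries and 1.076-fold. The treatments did not overlap at ZT 1, 9, 13 and 21. The limma adjusted p of the difference was 0.045, and over 48 alternatives it lay between 0.0182 and 0.279, with 14 of the 48 past the threshold, while the rhythm in anti-Ly6G livers was called under all of them. With 3 or 18 libraries a group, no test for single outlying samples was made.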

How the results depend on the processing

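Rhythm counts were stable in size: 4333 rhythmic genes became 3898 to 4312 with 1 anti-Ly6G library left out and 4253 to 4414 with 1 IgG library left out, 3980 with ZT as a factor, 3789 in anti-Ly6G livers alone and 3056 without ZT 5. Rhythms of 2-fold or more numbered 276 with a pseudocount of 5 (517 otherwise), and 473 to 553 or 514 to 517 with 1 anti-Ly6G or IgG library left out. IgG rhythms were 5293 to 5499 and 4937 to 5354 in the same way. The 12 h component passed for 24 genes in anti-Ly6G livers alone and 23 without ZT 1 (71 otherwise), and for 35 (without the first ZT 1 library) to 107 (without the first ZT 13 library) or 68 to 80. Genes with a rhythm difference were 3 with ZT as a factor or without ZT 9, 2 with a mean of at least 4, and 0 without a filter or without ZT 1, 17 or 21, and 0 to 2 with 1 library left out; at an unadjusted p under 0.05 there were 1149. The single named gene with a rhythm difference, Uchl5, became 0 with array weights, without a filter, and without ZT 1, 9, 13, 17 or 21, and 0 to 1 with 1 library left out. Of 186 named genes 173 were rhythmic, and 160 to 169 or 170 to 173 with 1 anti-Ly6G or IgG library left out, and no named gene changed the direction of its call. No paired analysis was possible because the labels give the liver groups no shared replicate number. The cause of these changes was not tested. Depth of 10.3 M reads or more leaves genes near 1 unit with few reads, and 3 libraries a time limit the precision of each time's mean.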

Other observations

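Outside the pathway lists, Rgs16, a regulator of G protein signalling, had the second widest rhythm of anti-Ly6G livers, at ZT 7.30 (SE 0.49 h, 45.2-fold). It had 48.9, 119.5 and 227.6 units at ZT 5 and 2.65, 2.37 and 1.54 at ZT 17. The choline kinase gene Chka peaked at ZT 19.9 (9.54-fold), the matrix enzyme gene Loxl4 at ZT 21.4 (12.1-fold), the nuclear receptor gene Ppard at ZT 20.5 (7.99-fold) and the water channel gene Aqp8 at ZT 21.9 (7.34-fold). Genes with peaks between ZT 0 and 12 included Upp2, a uridine phosphorylase, at ZT 10.0 (5.56-fold). They also included Gpcpd1, which breaks down glycerophosphocholine, at ZT 7.44 (5.54-fold), and Gch1, which starts biopterin synthesis, at ZT 6.49 (2.60-fold). The smallest p outside the lists was that of Tspan4, a tetraspanin, at ZT 13.1 (SE 0.25 h, 3.13-fold; limma adjusted p = 8.073e-13).

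Single libraries differed from their replicates in groups of genes. The first ZT 1 library had 103.3 units of Hspa1b, 450.0 of Alas1 and 98.2 of Socs2, against at most 18.2, 110.0 and 9.91 in the other libraries of that time. The third ZT 1 library had 67.4 units of Nr1d1 and 26.8 of Rgs16, against at most 29.6 and 3.93. The first ZT 13 library had 390.1 units of Lpin1, 265.3 of Fkbp5 and 166.7 of Mt1, against at most 55.1, 77.3 and 26.8. The median SD over replicates of the genes with a large rhythm in either treatment was highest at ZT 13 in anti-Ly6G livers, at 0.332 log2 units, and between 0.213 and 0.271 at the other times. In IgG livers it was between 0.195 and 0.253.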
